A study of Mus musculus with 56 samples.

Results

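The genes described here are 5 genes of arginine uptake and use: Slc7a1, Slc7a2, Arg1, Arg2 and Odc1. Their members in the data are the ChIP-seq peaks whose annotated gene name is one of the 5, in all 56 deposited peak lists. This gave 849 peaks of 1610519 in all, for 5 of the 20352 genes named in the lists. The name given to a peak is that of the gene with the nearest transcription start site, so an annotated peak is not a proven regulatory element of that gene.

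The cells were mouse bone-marrow-derived macrophages (BMDMs) that were differentiated for 6 days with supernatant of L929 cells, a fibroblast line that secretes the macrophage growth factor M-CSF. The bone marrow came from wild-type mice of 8 to 12 weeks, and each group had 2 samples. In the first experiment the cells were left untreated or received IL-4 at 20 ng/ml for 1 hr, and 8 antibodies were used, namely RNAPII-pS5, RNAPII-pS2, H3K27Ac, p300, PU.1, HDAC1, HDAC2 and HDAC3. In the second experiment RNAPII-pS5, RNAPII-pS2 and p65 were measured in 4 groups. These were control cells without LPS (ctrl/ctrl), cells given IL-4 at 20 ng/ml for 24 hr (IL-4 PT/ctrl), control cells given LPS at 100 ng/ml for 1 hr (ctrl/LPS) and cells given IL-4 for 24 hr and then LPS for 1 hr (IL-4 PT/LPS). The comparisons address how IL-4 alone changed polymerase, acetylation and factor binding within 1 hr, and how 24 hr of IL-4 changed the later response to LPS. The sources used here do not say whether the 2 samples of a group came from separate animals, so the p-values measure only the spread between these samples.

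Arginine enters macrophages through cationic amino acid transporters. Slc7a1 encodes the transporter found in most cell types, and Slc7a2 encodes an inducible one that is known from activated macrophages. Inside the cell arginine is split into ornithine and urea by arginase, which exists as the cytosolic enzyme Arg1 and the mitochondrial enzyme Arg2, or it is turned into nitric oxide by Nos2. Ornithine decarboxylase, encoded by Odc1, makes putrescine from ornithine and so starts polyamine synthesis. Arg1 is a textbook marker of macrophages exposed to IL-4, a cytokine that signals through the transcription factor STAT6, whereas LPS, a bacterial cell wall component, signals through Toll-like receptor 4 to the NF-κB subunit p65. RNAPII-pS5 is the initiating form of RNA polymerase II, RNAPII-pS2 is its elongating form, and H3K27Ac marks active promoters and enhancers. PU.1 is a lineage factor of macrophages, p300 is an acetyltransferase that acts as a coactivator, and HDAC1, HDAC2 and HDAC3 are histone deacetylases.

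A peak's score is a −log10 value from the peak caller for all antibodies except H3K27Ac, and for H3K27Ac it is the tag count of a region, scaled by the authors to a fixed library size. The value of a gene in a sample is the sum of the scores of its peaks, and "no peak" means that nothing passed the caller's threshold, not that nothing was bound. The score of a peak rises with the depth of the library, which is not given for these antibodies, and scores of different antibodies are not on 1 scale. Changes were fitted with limma on log2 sums over all genes that had a peak in 2 or more samples, after each sample was centred on its median gene. A gene with no peak received the lowest score of that antibody before the centring, so the size of a change from no peak depends on that floor. The spread between samples with no peak is likewise set by the floor and the centring and was not measured. A change was called at an unadjusted p of at most 0.05, and the Benjamini-Hochberg adjusted p is printed beside it. The share of all genes whose groups did not overlap was not counted, so a lack of overlap is given as a description only. In these bulk samples fewer responding cells and less binding per cell cannot be told apart.

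The lists held 8440 to 71027 peaks. In p300 the untreated replicate 1 stood apart, with 44787 peaks against 66710 to 69360 in the other lists, and its summed scores were the lowest of the 4 p300 samples at all 5 genes. After 1 hr, the peak names in the 4 lists of RNAPII-pS2 carry the opposite treatment from the sample labels, which occurred in none of the other lists whose peak names state a treatment. These samples are therefore called the libraries labelled untreated and labelled IL-4, and no direction of RNAPII-pS2 after 1 hr is certain. The labels give the HDAC3 and H3K27Ac antibodies the same catalogue number, whereas the reagent list of the study's methods gives them different ones. An RNAPII-pS5 promoter peak in both untreated replicates was found at 4 of 7 macrophage markers (Cd68, Itgam, Mertk and Fcgr1), at 1 of 5 neutrophil markers (S100a8) and at 0 of 4 T cell, 0 of 4 B cell, 0 of 4 fibroblast and 0 of 2 hepatocyte markers. Adgre1, Spi1 and Lyz2, which also define macrophages, had no such peak in the untreated replicates.

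Peaks of Odc1 were found in all 56 lists, those of Arg1 in 55, those of Slc7a1 in 51, those of Arg2 in 50 and those of Slc7a2 in 36. Peaks of all antibodies that overlap were joined into 83 sites, of which 43 were seen with 1 antibody and 20 with 6 or more. The genes lie on mm10 (GRCm38) at chr10:24915207-24927470 on the minus strand for Arg1, chr12:79130788-79156301 on the plus strand for Arg2, chr12:17544808-17551502 on the plus strand for Odc1, chr5:148327410-148399904 on the minus strand for Slc7a1 and chr8:40862341-40922070 on the plus strand for Slc7a2. The annotation placed all 89 peaks of Arg2 in introns, whereas 75.6% of the 221 peaks of Odc1, 58.0% of the 245 peaks of Arg1 and 57.1% of the 84 peaks of Slc7a2 were intergenic. Of the 210 peaks of Slc7a1, 23.8% were intergenic and 67.6% intronic. Sites are named below by their distance from the start site, with negative values upstream. The Arg1 sites at 14.0, 16.0 and 25.2 kb lie within the neighbouring gene Med23, which is on the far side of the Arg1 3′ end, and the Slc7a1 site at 88.8 kb lies in an intron of Mtus2.

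The 6 windows of 201 bases below are centred on peaks that carry the changes described later. The first pair are the strongest p300 sites of Arg1 and Slc7a2 after IL-4, the third is a p300 site near Odc1 that had no peak without IL-4, and the last 3 are p65 sites of Slc7a2, Arg2 and Odc1. The Odc1 windows were chosen after their values were seen. Capitals mark a match to a STAT consensus (TTCNNNNGAA), to a PU.1 consensus (GAGGAAGT) or to the κB consensus of NF-κB, searched on both strands, and the sequence shown is the plus strand of mm10.
Arg1 at −2.9 kb, chr10:24930253-24930453: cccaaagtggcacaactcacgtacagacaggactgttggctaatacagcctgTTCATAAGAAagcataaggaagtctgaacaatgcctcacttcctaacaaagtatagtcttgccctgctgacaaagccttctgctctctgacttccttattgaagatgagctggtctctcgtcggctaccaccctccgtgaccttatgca
Slc7a2 at −11.2 kb, chr8:40851069-40851269: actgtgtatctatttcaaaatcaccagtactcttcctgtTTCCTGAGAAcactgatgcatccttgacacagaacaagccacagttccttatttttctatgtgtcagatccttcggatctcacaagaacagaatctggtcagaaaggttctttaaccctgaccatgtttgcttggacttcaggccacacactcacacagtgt
Odc1 at −94.2 kb, chr12:17450612-17450812: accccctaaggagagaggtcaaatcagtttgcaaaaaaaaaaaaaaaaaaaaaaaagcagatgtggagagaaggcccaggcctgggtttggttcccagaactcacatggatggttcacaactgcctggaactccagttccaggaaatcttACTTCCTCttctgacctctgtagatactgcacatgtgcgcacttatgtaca
Slc7a2 at −3.4 kb, chr8:40858846-40859046: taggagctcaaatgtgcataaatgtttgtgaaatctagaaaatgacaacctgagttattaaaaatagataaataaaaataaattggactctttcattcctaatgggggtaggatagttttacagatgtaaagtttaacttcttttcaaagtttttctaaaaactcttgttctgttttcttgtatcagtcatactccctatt
Arg2 at 1.6 kb, chr12:79132278-79132478: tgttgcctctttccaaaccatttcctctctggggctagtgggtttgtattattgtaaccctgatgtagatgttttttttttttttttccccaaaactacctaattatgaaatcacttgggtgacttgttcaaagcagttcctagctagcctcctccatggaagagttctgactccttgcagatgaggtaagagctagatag
Odc1 at 68.0 kb, chr12:17612801-17613001: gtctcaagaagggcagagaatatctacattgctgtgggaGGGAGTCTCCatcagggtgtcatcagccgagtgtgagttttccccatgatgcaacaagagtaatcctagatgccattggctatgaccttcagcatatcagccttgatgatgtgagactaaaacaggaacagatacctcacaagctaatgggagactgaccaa

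The Arg1 window and the Slc7a2 window at −11.2 kb each hold 1 STAT match, the Odc1 window at −94.2 kb holds 1 PU.1 match, the Odc1 window at 68.0 kb holds 1 κB match, and the Arg2 window and the Slc7a2 window at −3.4 kb hold none of the 3. Among all 81224 p300 windows of this length, 10.2% hold the STAT consensus, 9.95% the PU.1 consensus and 3.40% the κB consensus. Among all 51410 p65 windows, the shares are 8.31%, 7.85% and 10.9%, in the same order. A match describes the letters of the window and was not tested for binding.

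After 1 hr of IL-4, Slc7a2 went from no peak or low scores to peaks with RNAPII-pS5, H3K27Ac, p300, PU.1, HDAC1 and HDAC2, and these were the largest changes among the 5 genes with each of the 6 antibodies. Arg1 and Arg2 rose with RNAPII-pS5, H3K27Ac, p300 and PU.1, by 3.35-fold and 1.37-fold in H3K27Ac signal. With RNAPII-pS5 the summed peak-caller scores, which are not amounts of polymerase, rose 2.03-fold for Arg1 and 3.78-fold for Arg2. The Arg2 value rests on the floor given to 1 untreated sample with no peak (limma, adjusted p = 0.338). Its call held in 3 of 9 alternatives that kept all samples. Slc7a1 rose with H3K27Ac by 1.22-fold, and none of the 8 antibodies gave a call for Odc1. The plot of summed scores in the 1 hr experiment shows every sample.

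**Figure D1:**
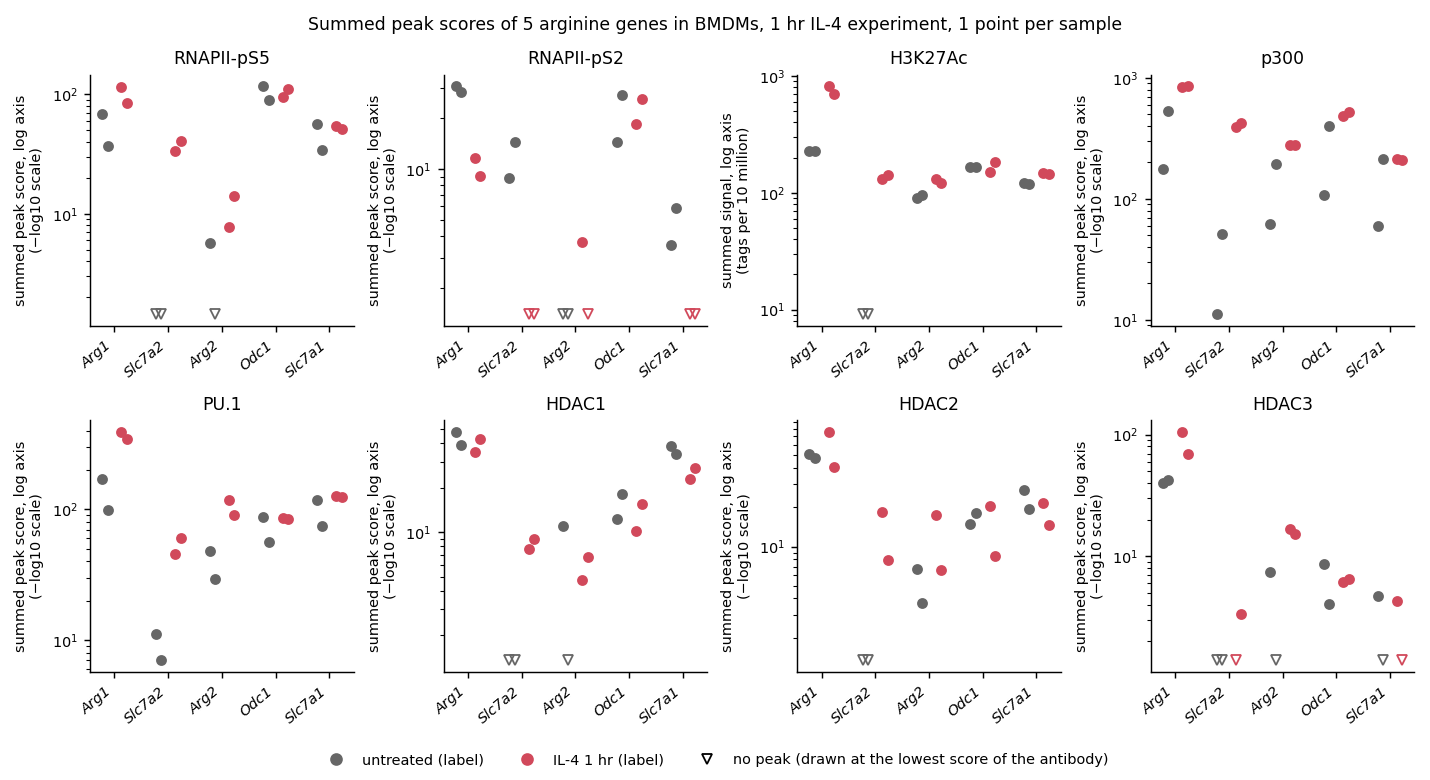
Summed peak score of each gene (log axis) in the 1 hr experiment, 1 panel per antibody, with the 2 untreated and the 2 IL-4 samples as separate points; open triangles stand for samples with no peak, drawn at the lowest score of that antibody. Slc7a2 has no H3K27Ac region in the untreated samples and sums of 130.7 and 142.0 after IL-4, whereas the Odc1 points overlap in every panel but p300, where the 2 IL-4 points lie above both untreated points.

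Slc7a2, the inducible transporter, had no H3K27Ac region in either untreated sample and summed signals of 130.7 and 142.0 after IL-4. No RNAPII-pS5 peak was present in untreated cells, and the summed scores after IL-4 were 33.79 and 40.96. For p300 the sums were 11.06 and 51.48 without IL-4 and 395.78 and 425.79 with it. The first of the untreated values came from replicate 1, whose list held fewer peaks. The groups did not overlap with any of these antibodies, and no other member went from no peak to peaks in both IL-4 samples with RNAPII-pS5 or H3K27Ac. The PU.1 sums were 11.17 and 6.98 in the untreated samples, then 45.14 and 59.80 after IL-4. HDAC1 had no peak in untreated cells and sums of 7.68 and 8.92 after IL-4, and HDAC2 had no peak and then sums of 18.35 and 7.89. The HDAC3 lists held 1 Slc7a2 peak, with a score of 3.36 in 1 IL-4 replicate, and no change was tested.

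The log2 changes of Slc7a2 in limma were 4.74 ± 0.27 (SE, adjusted p = 0.0262) for RNAPII-pS5, 3.91 ± 0.07 (adjusted p = 0.000261) for H3K27Ac and 3.25 ± 0.24 (adjusted p = 0.0528) for p300. They were 2.27 ± 0.29 (adjusted p = 0.201) for PU.1, 3.06 ± 0.37 (adjusted p = 0.239) for HDAC1 and 3.08 ± 0.43 (adjusted p = 0.278) for HDAC2. Since 4 of the 6 start from no peak, their size depends on the floor, and over the alternatives the RNAPII-pS5 change ran from 1.11 to 4.74 and the H3K27Ac change from 0.31 to 3.91. In these 4 Slc7a2 entered the test through the IL-4 samples alone, and their SE and p hold no measured spread of the untreated samples. The gain lay mainly at a distal site at −11.2 kb and at the start site. At −11.2 kb the H3K27Ac signals were 72.8 and 81.9 after IL-4, and the p300 scores were 11.06 and 45.80 without IL-4 and 197.14 and 222.30 with it. At −0.5 kb the H3K27Ac signals were 57.9 and 60.1 after IL-4, and p300 had no peak and 5.68 without IL-4 against 172.85 and 171.55 with it. RNAPII-pS5 peaks of 19.16 and 19.28 appeared in a region that begins at the start site and is centred 0.2 kb into the gene, and PU.1 at −11.2 kb went from 11.17 and 6.98 to 37.05 and 54.47. The distal site at −11.2 kb is thus the 1 place near Slc7a2 where PU.1 and p300 peaks were already present in both untreated samples.

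Slc7a1, the widely expressed transporter, had summed H3K27Ac signals of 120.3 and 118.7 in the untreated samples, then 147.3 and 144.0 after IL-4. The groups did not overlap, and the log2 change was 0.29 ± 0.05 (limma, adjusted p = 0.0259). At its promoter the H3K27Ac signals were 35.0 and 43.4 and then 60.6 and 57.6, and the RNAPII-pS5 scores 10.58 and 6.21 and then 19.30 and 21.57, which gave a promoter change of 1.44 ± 0.26 on the log2 scale for RNAPII-pS5 (limma, adjusted p = 0.0639). The HDAC1 scores at the promoter were 13.41 and 15.07 without IL-4 and 7.11 and 9.16 with it, but all HDAC1 lists were smaller after IL-4 and the change of the summed score was −0.05 ± 0.36 after centring. The summed RNAPII-pS5 scores of Slc7a1, 56.85 and 33.94 against 53.95 and 51.35, overlapped between the groups.

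Arg1, the cytosolic arginase, had summed H3K27Ac signals of 227.1 and 228.5 in the untreated samples, then 820.1 and 703.0 after IL-4. Its RNAPII-pS5 sums were 67.94 and 37.13 without IL-4 and 115.24 and 84.67 with it, and its PU.1 sums were 170.50 and 98.18 against 392.30 and 345.61. The p300 sums were 176.49 and 533.27 in the untreated samples, then 839.48 and 857.63 after IL-4. In all of these the IL-4 samples were above the untreated ones, by a wide margin for H3K27Ac and a narrow one for RNAPII-pS5. The log2 changes in limma were 1.74 ± 0.09 for H3K27Ac (adjusted p = 0.00382), 1.02 ± 0.23 for RNAPII-pS5 (adjusted p = 0.201), 1.22 ± 0.25 for PU.1 (adjusted p = 0.306) and 0.61 ± 0.15 for p300 (adjusted p = 0.135). HDAC3 sums were 39.99 and 42.17 and then 105.72 and 69.40, which did not overlap but gave 0.64 ± 0.45 after centring. The HDAC1 and HDAC2 sums of the 2 groups overlapped.

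The Arg1 change in H3K27Ac was spread over 3 regions. At −2.9 kb the signals were 101.3 and 122.5 without IL-4 and 405.6 and 401.3 with it, at −23.0 kb they were 36.8 and 31.6 and then 124.8 and 113.2, and at 16.0 kb, within Med23, 70.6 and 74.4 and then 212.9 and 188.5. The log2 changes of these regions were 1.91 ± 0.12, 1.85 ± 0.11 and 1.52 ± 0.10 (limma, adjusted p = 0.00282, 0.00259 and 0.00279). The p300 change was larger next to the start site than at −2.9 kb. At −0.6 kb the scores were 9.40 and 22.97 without IL-4 and 124.20 and 126.47 with it, whereas at −2.9 kb they were 43.71 and 144.85 and then 227.83 and 210.78. The p300 log2 changes were 2.42 ± 0.30 at −0.6 kb (limma, adjusted p = 0.0495) and 0.79 ± 0.28 at −2.9 kb (adjusted p = 0.193). RNAPII-pS5 at −23.0 kb had scores of 6.80 and 6.45 and then 28.31 and 16.97, and HDAC3 at −2.9 kb had 12.49 and 14.45 and then 58.10 and 30.19. The plot of site values by distance shows these positions beside those of Slc7a2.

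**Figure D2:**
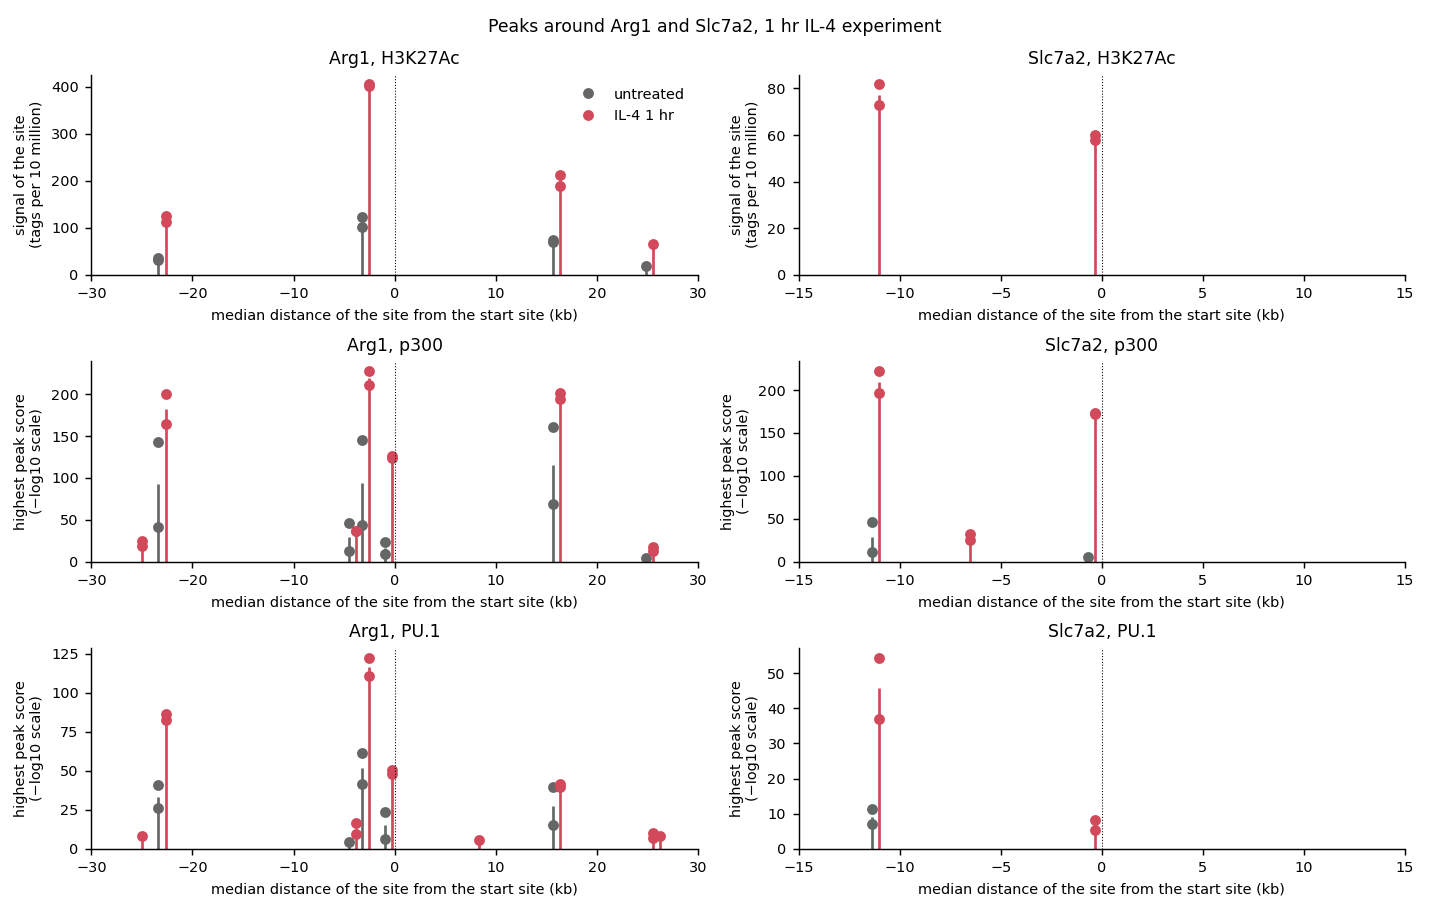
Site values of Arg1 and Slc7a2 in the 1 hr experiment against the distance from the start site in kb, for H3K27Ac (normalized tags), p300 and PU.1 (peak scores), with samples as points, group means as vertical lines, and the groups shifted slightly sideways. Sites beyond the drawn range are left out, and a sample with no peak has no point. At Slc7a2 the H3K27Ac points at −11.2 and −0.5 kb are present only in the IL-4 samples, and at Arg1 the site at −2.9 kb carries the highest H3K27Ac signal in all 4 samples.

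Arg2, the mitochondrial arginase, rose less than Arg1 in H3K27Ac. Its summed H3K27Ac signals were 90.2 and 95.0 in the untreated samples, then 131.1 and 120.8 after IL-4, with a log2 change of 0.45 ± 0.07 (limma, adjusted p = 0.0233). The PU.1 sums were 48.15 and 29.09 and then 117.94 and 90.27 (log2 change 1.18 ± 0.27, adjusted p = 0.337), and the p300 sums 62.36 and 193.11 and then 276.55 and 281.21 (0.49 ± 0.15, adjusted p = 0.167). In each of these the groups did not overlap. RNAPII-pS5 was weak at Arg2, with 5.68 and no peak in the untreated samples, then 7.72 and 14.20 after IL-4, and its change of 1.92 ± 0.66 (adjusted p = 0.338) was no longer called without untreated replicate 2, when it was 1.19, or without IL-4 replicate 2, when it was 1.43. HDAC3 gave 7.44 and no peak and then 16.64 and 15.33 (1.89 ± 0.67, adjusted p = 0.308), a call that was lost without untreated replicate 2 (1.03), IL-4 replicate 1 (1.99) or IL-4 replicate 2 (1.81). The intronic site at 10.2 kb held the highest p300 scores of Arg2, 30.59 and 121.44 without IL-4 and 182.41 and 187.25 with it.

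Odc1, which opens polyamine synthesis, had summed H3K27Ac signals of 164.9 and 165.0 in the untreated samples, then 150.2 and 183.0 after IL-4, and RNAPII-pS5 sums of 117.47 and 90.35 and then 95.58 and 110.87. The log2 changes were 0.01 ± 0.12 and 0.04 ± 0.19, and the groups overlapped for both. Its promoter RNAPII-pS5 scores, 99.33 and 83.10 without IL-4 and 90.46 and 96.23 with it, overlapped as well. Single Odc1 sites did change, in both directions. The H3K27Ac region at −33.9 kb, which is part of the site at −34.5 kb, fell, with signals of 53.4 and 53.1 and then 31.1 and 33.7 (log2 change −0.66 ± 0.07, limma, adjusted p = 0.00773), and the region at 46.4 kb rose, with 16.9 and 21.9 and then 37.4 and 49.3 (1.21 ± 0.21, adjusted p = 0.0223). The p300 site at −94.2 kb had no peak in either untreated sample and scores of 86.61 and 91.56 after IL-4, and PU.1 had no peak there and then 9.19 and 13.76.

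By antibody, the calls after 1 hr of IL-4 were as follows. Genes and regions with peaks in the IL-4 samples alone entered the test through that group, which gave the direction of their calls. Slc7a2 with RNAPII-pS5, H3K27Ac, HDAC1 and HDAC2 is such a case, as are its RNAPII-pS5 regions at 0.2, −11.2 and −0.4 kb. With RNAPII-pS5, 3 of 5 genes were called, all higher (Arg1, Arg2 and Slc7a2), where 14.6% of all genes were called, and 8 of 14 regions of the 5 genes, all higher, where 19.5% of all regions were called. Only 1 gene was called without untreated replicate 2, without IL-4 replicate 1 or without IL-4 replicate 2, and the regions fell to 4 and 3 without IL-4 replicate 1 and 2. With H3K27Ac, 4 of 5 genes were called, all higher, against 46.0% of all genes, and 11 of 17 regions, 9 higher and 2 lower, against 51.2% of all regions, so a call with this mark was common among all genes. With p300, 3 of 5 genes were called, all higher (25.8% of all genes), and 13 of 37 regions, 12 higher and 1 lower (25.0% of all regions). In fits that left out 1 sample the log2 changes ran from 2.99 to 3.51 for Slc7a2, 0.56 to 0.66 for Arg1 and 0.45 to 0.52 for Arg2. All 3 calls held without untreated replicate 1, the p300 list with fewer peaks. The calls of Arg1 and Arg2 were lost without IL-4 replicate 1 or 2, and fewer regions were then called.

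With PU.1, 3 of 5 genes were called, all higher (10.2% of all genes), and 11 of 30 regions, 10 higher and 1 lower (12.1%). Without IL-4 replicate 1 the counts were 1 gene and 2 regions, and without IL-4 replicate 2 only 1 region was called. With HDAC1, Slc7a2 was the 1 gene called of 5 (8.86% of all genes), and 2 of 13 regions were called, both higher (14.0%). With HDAC2, Slc7a2 was again the 1 gene called of 5 (9.47%), with 2 of 10 regions, both higher (13.9%). Without either IL-4 replicate 0 genes were called for HDAC1 and for HDAC2, since Slc7a2 then had a peak in 1 sample and was not tested, and 0 HDAC1 regions. Without untreated replicate 1 there were 2 genes for HDAC1, and for HDAC2 the regions were 1 without untreated replicate 2 or IL-4 replicate 1 and 0 without IL-4 replicate 2. With HDAC3, Arg2 was the 1 gene called of 4 tested (15.4%), and 0 of 5 regions were called (19.3%). The count of genes was 0 without untreated replicate 2 or either IL-4 replicate, and 1 region was called without untreated replicate 1.

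For RNAPII-pS2 the libraries labelled IL-4 were the lower ones. Arg1 sums were 30.69 and 28.37 in the libraries labelled untreated and 11.64 and 9.11 in those labelled IL-4, and Slc7a2 sums were 8.83 and 14.30 in the former with no peak in the latter. Slc7a1 had 3.58 and 5.90 in the former and no peak in the latter, whereas Odc1 had 14.36 and 27.10 against 18.27 and 25.72. Arg1 did not overlap between the labels, and Odc1 did. Slc7a2 and Slc7a1 were separated by the lack of a peak in the libraries labelled IL-4. The log2 changes were −1.44 ± 0.42 for Arg1, −2.93 ± 0.33 for Slc7a2 and −1.65 ± 0.33 for Slc7a1 (limma, adjusted p = 0.215, 0.0574 and 0.107), the last of which was 0.037 with a floor raised by a factor of 4. Thus 3 of 4 genes tested were called, all lower in the libraries labelled IL-4 (16.1% of all genes), and 3 of 7 regions, all lower (21.0%). Slc7a2 and Slc7a1 entered the test through the libraries labelled untreated alone, as did the called regions of Arg1 at −1.0 kb and Slc7a2 at −10.9 kb. The direction of these calls was given by this entry, and their SE and p hold no measured spread of the libraries labelled IL-4. Without the library labelled untreated replicate 1 there were 0 genes and 0 regions called, and without replicate 2 there were 1 gene and 0 regions. If the peak names rather than the labels were right, the sign of each of these changes would turn.

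Among 39 other genes of arginine transport and use, 2 of 29 tested were called with RNAPII-pS5, both higher, where 14.6% of all genes were called. These were Gatm, which makes the creatine precursor from arginine (log2 change 1.10 ± 0.19, limma, adjusted p = 0.132), and Slc7a6, a transporter subunit (1.03 ± 0.33, adjusted p = 0.307). With H3K27Ac, 9 of 30 were higher and 7 lower (46.0% of all genes called). They included Gatm (1.30 ± 0.07, adjusted p = 0.00405) and Otc, the urea cycle enzyme that joins ornithine to carbamoyl phosphate (2.46 ± 0.21, adjusted p = 0.00765), on the higher side, and the transporter gene Slc7a7 (−0.76 ± 0.07, adjusted p = 0.00859) on the lower side. With PU.1, 4 of 29 were higher and 1 lower (10.2% of all genes called). With p300, 2 of 35 were higher and 4 lower (25.8%). With HDAC1 0 of 28 were higher and 1 lower (8.86%), and with HDAC2 5 of 22 were higher and 3 lower (9.47%). With HDAC3 0 of 10 were called (15.4%). With p300 the split was 2 higher and 0 lower without centring, with HDAC1 it was 0 higher and 3 lower, with PU.1 3 higher and 0 lower, and with HDAC2 4 higher and 1 lower. With RNAPII-pS2, 1 of 23 was higher and 2 were lower in the libraries labelled IL-4 (16.1% of all genes called). The median log2 change of the list was −0.03 with RNAPII-pS5 and 0.06 with H3K27Ac, beside −0.01 over all genes with each antibody.

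In the second experiment the 5 genes took different courses. Slc7a2 had no peak in ctrl/ctrl with any of the 3 antibodies, low scores after IL-4 or LPS alone, and its highest scores with both. Arg2 rose with LPS with all 3 antibodies, Arg1 was highest after 24 hr of IL-4 for both polymerase forms and fell with LPS, and the p65 sums of Arg1, Odc1 and Slc7a1 were highest in IL-4 PT/LPS. The p65 lists of that group were also the largest as a whole, with 36738 to 38955 peaks against 26305 to 26820 in ctrl/LPS. The plot of summed scores in the 4 conditions shows these courses. The contrasts of this experiment share samples with each other, and each is given by its own values.

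**Figure D3:**
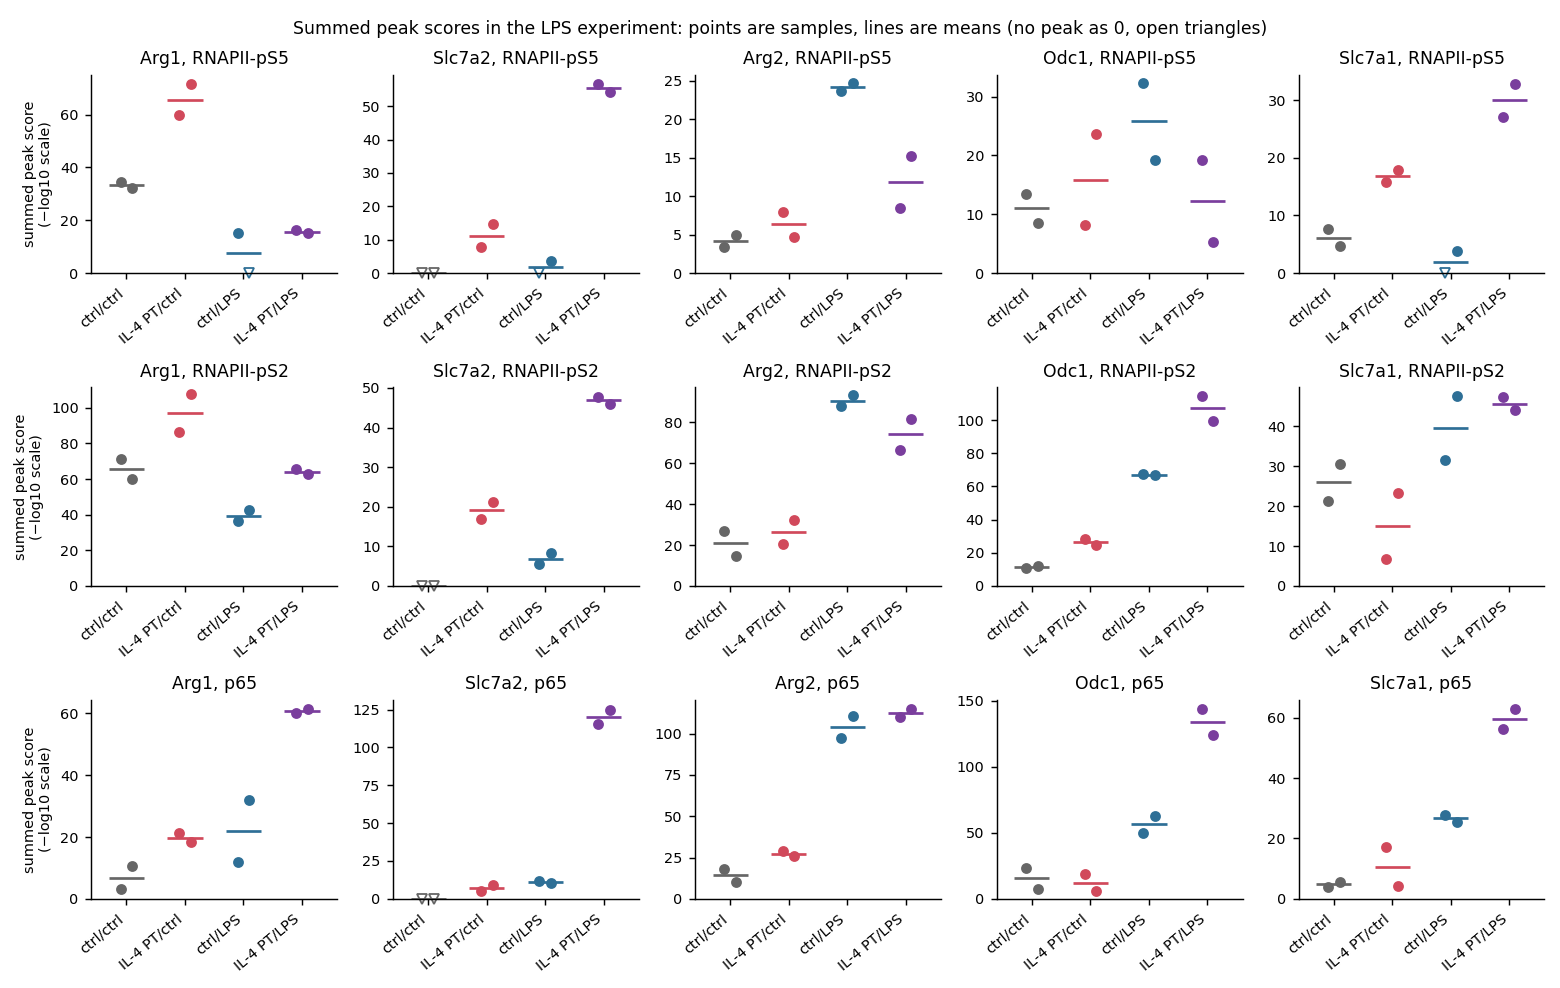
Summed peak score (linear axis from 0) of the 5 genes in the 4 groups of the LPS experiment, 1 panel per gene and antibody, with the 2 samples of a group as points, their mean as a line, and open triangles at 0 where a sample has no peak. Slc7a2 reaches p65 sums of 115.73 and 124.86 in IL-4 PT/LPS against 11.66 and 10.50 in ctrl/LPS, and the Arg1 RNAPII-pS5 points are highest in IL-4 PT/ctrl.

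Slc7a2 had no RNAPII-pS5 peak in ctrl/ctrl, scores of 7.67 and 14.80 in IL-4 PT/ctrl, no peak and 3.74 in ctrl/LPS, and 56.65 and 54.31 in IL-4 PT/LPS. RNAPII-pS2 had no peak in ctrl/ctrl, 16.95 and 21.26 in IL-4 PT/ctrl, 5.60 and 8.25 in ctrl/LPS, and 47.74 and 46.06 in IL-4 PT/LPS. For p65 there was no peak in ctrl/ctrl, then 5.40 and 9.05 in IL-4 PT/ctrl, 11.66 and 10.50 in ctrl/LPS, and 115.73 and 124.86 in IL-4 PT/LPS. With each antibody the IL-4 PT/LPS samples were above all others. Under LPS the log2 effect of pretreatment was 4.29 ± 0.51 with RNAPII-pS5, 2.74 ± 0.28 with RNAPII-pS2 and 2.94 ± 0.33 with p65 (limma, adjusted p = 0.00794, 0.00416 and 0.00413). These 3 calls held without any single sample. The smaller changes of Slc7a2 with LPS alone, 1.44 ± 0.33 for p65 (adjusted p = 0.0203) and 2.07 ± 0.28 for RNAPII-pS2 (adjusted p = 0.00445), turned negative under other treatments of low or intergenic peaks, to −1.52 at the lowest for p65 and −0.38 for RNAPII-pS2.

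Near Slc7a2 the pretreated cells had p65 peaks under LPS at 5 sites, 2 of them in 1 sample only, and the plot of p65 values by distance shows them. At −11.2 kb the p65 scores were absent in ctrl/ctrl, 5.40 and 4.04 in IL-4 PT/ctrl, 3.69 and 5.25 in ctrl/LPS, and 40.72 and 37.34 in IL-4 PT/LPS. At −3.4 kb they were 7.97 and 5.25 in ctrl/LPS and 37.02 and 28.44 in IL-4 PT/LPS, with no peak without LPS. At −0.5 kb there was no peak in ctrl/LPS, and the scores were 24.52 and 28.58 in IL-4 PT/LPS. Thus the site at −11.2 kb, which carried p300 and H3K27Ac after 1 hr of IL-4, also had the highest p65 score of the gene in each IL-4 PT/LPS sample. The RNAPII-pS5 peak 1.0 kb into the gene had scores of 16.99 and 21.68 in IL-4 PT/LPS and no peak in ctrl/LPS, and a peak at 2.7 kb occurred in IL-4 PT/LPS alone, with RNAPII-pS5 scores of 13.81 and 9.12.

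Slc7a1 had RNAPII-pS5 sums of 7.61 and 4.64 in ctrl/ctrl, 15.82 and 17.83 in IL-4 PT/ctrl, no peak and 3.87 in ctrl/LPS, and 27.14 and 32.80 in IL-4 PT/LPS. The pretreated samples were above the others, and the log2 change with pretreatment under LPS was 3.37 ± 0.49 (limma, adjusted p = 0.0129). At its promoter RNAPII-pS5 was found in IL-4 PT/LPS, with scores of 16.42 and 16.77, and otherwise in 1 IL-4 PT/ctrl sample with 3.69. The RNAPII-pS2 sums were 21.26 and 30.63 in ctrl/ctrl, 6.81 and 23.34 in IL-4 PT/ctrl, 31.54 and 47.73 in ctrl/LPS, and 47.34 and 44.02 in IL-4 PT/LPS. The p65 sums were 3.99 and 5.54, 17.05 and 4.29, 27.75 and 25.57, and 56.29 and 62.84 in the same order. The 2 pretreated LPS samples had the highest p65 sums, but the change against ctrl/LPS of 0.65 ± 0.61 after centring was not called.

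Arg1 had RNAPII-pS5 sums of 34.54 and 32.23 in ctrl/ctrl, 59.81 and 71.61 in IL-4 PT/ctrl, 15.20 and no peak in ctrl/LPS, and 16.34 and 15.03 in IL-4 PT/LPS. The RNAPII-pS2 sums were 71.33 and 60.14, then 86.62 and 107.92, then 36.62 and 42.50, and 65.64 and 62.67 in the same order. Both forms were highest after IL-4 alone, and the ctrl/LPS samples did not overlap with ctrl/ctrl. The RNAPII-pS5 change with IL-4 alone, 0.90 ± 1.02 on the log2 scale, was not called (limma, adjusted p = 0.693). Nor was that with LPS in pretreated cells (−1.95 ± 1.02, adjusted p = 0.241). The log2 change with LPS was −2.51 ± 1.02 for RNAPII-pS5 (limma, adjusted p = 0.124) and −0.95 ± 0.23 for RNAPII-pS2 (adjusted p = 0.0291). The RNAPII-pS5 call held in 1 of 8 fits that left out 1 sample, with changes from −4.18 to −0.73. In pretreated cells RNAPII-pS2 fell with LPS by 0.93 ± 0.23 on the log2 scale (adjusted p = 0.0385), and under LPS it was 0.66 ± 0.23 higher with pretreatment than without (adjusted p = 0.154, called in 5 of 8 fits that left out 1 sample). The p65 sums of Arg1 were 3.10 and 10.65 in ctrl/ctrl, 21.28 and 18.26 in IL-4 PT/ctrl, 11.98 and 31.83 in ctrl/LPS, and 60.16 and 61.36 in IL-4 PT/LPS. The p65 change with pretreatment under LPS, 1.13 ± 0.68 after centring, was not called.

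Within the Arg1 locus the sites at −23.0 and −2.9 kb differed. At −23.0 kb the RNAPII-pS5 scores were 6.77 and 7.07 in ctrl/ctrl and 19.43 and 25.08 in IL-4 PT/ctrl, and no peak was found with LPS in either group. RNAPII-pS2 at this site was 17.85 and 14.80, then 39.97 and 42.56, then without a peak, and 9.98 and 5.95 in IL-4 PT/LPS. The RNAPII-pS2 change with LPS there was −3.74 ± 0.30 on the log2 scale (limma, adjusted p = 0.000536). At −2.9 kb RNAPII-pS5 was 13.47 and 11.51 in ctrl/ctrl, had no peak in IL-4 PT/ctrl, 3.84 and no peak in ctrl/LPS, and 6.70 and 6.83 in IL-4 PT/LPS. At 14.0 kb, a position noticed after the values were seen, RNAPII-pS5 scores of 19.43 and 16.69 and RNAPII-pS2 scores of 16.75 and 18.90 occurred in IL-4 PT/ctrl alone. The p65 scores at −2.9 kb were 3.10 and 6.80, 11.35 and 18.26, 6.06 and 4.21, and 24.29 and 25.52 in the same order of groups, with a log2 change of 2.03 ± 0.47 for pretreatment under LPS (limma, adjusted p = 0.0224).

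Arg2 had p65 sums of 18.33 and 10.45 in ctrl/ctrl, 29.21 and 25.63 in IL-4 PT/ctrl, 97.49 and 110.91 in ctrl/LPS, and 109.92 and 114.97 in IL-4 PT/LPS. The RNAPII-pS2 sums were 26.98 and 14.59, then 20.62 and 32.38, then 87.91 and 93.08, and 66.66 and 81.46. The RNAPII-pS5 sums were 3.39 and 4.92, then 7.99 and 4.73, then 23.75 and 24.76, and 8.50 and 15.17. With LPS alone all 3 measures rose without overlap with ctrl/ctrl, RNAPII-pS5 by 2.90 ± 0.45, RNAPII-pS2 by 1.97 ± 0.36 and p65 by 1.27 ± 0.33 on the log2 scale (limma, adjusted p = 0.00661, 0.0118 and 0.0317). Under LPS the pretreated samples were below the others for RNAPII-pS5 (−1.38 ± 0.45, adjusted p = 0.112) and RNAPII-pS2 (−0.34 ± 0.36, adjusted p = 0.632), of which the first was called. That call held in 5 of 8 fits that left out 1 sample and was lost without either ctrl/LPS sample or without IL-4 PT/LPS replicate 1, when it was −0.96. The p65 binding lay at 2 intronic sites. At 1.6 kb the scores were 7.92 and 4.58, 13.92 and 12.76, 52.08 and 66.40, and 65.18 and 63.34 in the same order of groups. At 10.2 kb they were 10.41 and 5.87, 15.29 and 12.87, 45.41 and 44.51, and 44.74 and 51.63. The site at 1.6 kb also gained RNAPII-pS2, with 6.00 and no peak in ctrl/ctrl and 44.76 and 42.86 in ctrl/LPS.

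Odc1 had RNAPII-pS2 sums of 10.58 and 11.84 in ctrl/ctrl, 28.10 and 24.80 in IL-4 PT/ctrl, 67.34 and 66.91 in ctrl/LPS, and 114.56 and 99.67 in IL-4 PT/LPS. The 4 groups did not overlap and rose in this order. The log2 changes were 2.36 ± 0.24 with LPS (limma, adjusted p = 0.00173), 1.30 ± 0.24 with IL-4 (adjusted p = 0.0200) and 0.63 ± 0.24 with pretreatment under LPS (adjusted p = 0.187). When intergenic peaks were left out the 3 changes turned negative, to −0.92, −0.59 and −1.65. The last of the 3 calls held in 2 of 8 fits that left out 1 sample, with changes from 0.54 to 0.71. The distal sites carried them. At −34.5 kb RNAPII-pS2 had no peak in ctrl/ctrl, 3.24 and 7.93 in IL-4 PT/ctrl, 33.50 and 23.15 in ctrl/LPS, and 42.48 and 27.44 in IL-4 PT/LPS. At −37.6 kb it had no peak without LPS, 20.17 and 21.47 in ctrl/LPS, and 21.52 and 23.59 in IL-4 PT/LPS. The RNAPII-pS5 regions near the start site went opposite ways with LPS. At −0.4 kb the scores were 13.48 and 8.59 in ctrl/ctrl and 8.20 and 17.56 in IL-4 PT/ctrl. No peak was found there with LPS in either group (log2 change with LPS −2.72 ± 0.41, limma, adjusted p = 0.00479). At 0.7 kb the log2 change with LPS was 1.96. The summed RNAPII-pS5 score changed by 1.54 ± 0.78 with LPS and was not called (limma, adjusted p = 0.199).

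The p65 sums of Odc1 were 23.51 and 7.72 in ctrl/ctrl, 18.65 and 5.80 in IL-4 PT/ctrl, 50.26 and 62.83 in ctrl/LPS, and 143.62 and 124.22 in IL-4 PT/LPS. The 2 pretreated LPS samples were the highest, although the change against ctrl/LPS, 0.74 ± 0.72 on the log2 scale, was not called. The p65 site with the highest mean score, at −37.6 kb, had 23.37 and 31.56 in ctrl/LPS and 25.34 and 26.17 in IL-4 PT/LPS, which overlap. At −34.5 kb, where H3K27Ac had fallen after 1 hr of IL-4, p65 had 8.99 and 11.99 in ctrl/LPS and 20.26 and 24.28 in IL-4 PT/LPS (0.83 ± 0.21, limma, adjusted p = 0.0336). At −89.6 kb, noticed after its values were seen, p65 had 9.17 and no peak in ctrl/LPS and 29.20 and 20.29 in IL-4 PT/LPS. At 68.0 kb, a site chosen after its values were seen, p65 scores of 18.96 and 15.81 and RNAPII-pS2 scores of 21.79 and 24.60 occurred in IL-4 PT/LPS alone.

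Counted over the 5 genes, LPS alone gave 2 calls for RNAPII-pS5, Arg2 higher and Arg1 lower (38.8% of all genes called), and 9 of 24 regions (39.1% of all regions). Without either ctrl/ctrl sample or either IL-4 PT/ctrl sample 1 gene was called. For RNAPII-pS2 there were 4 calls, Arg2, Odc1 and Slc7a2 higher and Arg1 lower (39.9%), and 12 of 26 regions (41.8%). For p65 there were 2 calls, Arg2 and Slc7a2, both higher (45.8%), and 14 of 28 regions (53.8%). The number of p65 peaks per list itself went from 9556 to 9706 in ctrl/ctrl to 26305 to 26820 in ctrl/LPS, and centring removed a median change of 1.64 on the log2 scale. Without centring all 5 genes were called, all higher. Regions with no peak in both groups of the contrast received a change equal to the centring shift, and with the floor set after the centring 8 p65 regions were called in place of 14. Without either IL-4 PT/LPS sample, when regions with peaks in those samples alone were no longer tested, 5 were called.

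IL-4 for 24 hr alone gave 2 calls for RNAPII-pS5, Slc7a1 and Slc7a2, both higher (21.6% of all genes), and 8 of 24 regions (26.7% of all regions). The Slc7a2 change was 2.81 ± 0.51 (limma, adjusted p = 0.0246) and that of Slc7a1 1.43 ± 0.49 (adjusted p = 0.156; −0.07 with the highest peak in place of the sum), and 1 gene was called without ctrl/ctrl replicate 2 or either IL-4 PT/ctrl sample, with 5 regions without IL-4 PT/ctrl replicate 2. For RNAPII-pS2 there were 3 calls, Arg1, Odc1 and Slc7a2, all higher (29.5%), and 11 of 26 regions (31.7%), with 3.84 ± 0.28 for Slc7a2 (adjusted p = 0.00122) and 0.63 ± 0.23 for Arg1 (adjusted p = 0.133, called in 3 of 8 fits that left out 1 sample). For p65 there were 3 calls, Arg1, Arg2 and Slc7a2, all higher (16.3%), and 4 of 28 regions (10.1%). The p65 changes were 1.92 ± 0.68 for Arg1, 1.13 ± 0.33 for Arg2 and 2.56 ± 0.33 for Slc7a2 (adjusted p = 0.225, 0.140 and 0.0125). Since Slc7a2 lacked a peak in ctrl/ctrl, the size of each of its changes here depends on the floor. Across alternatives that kept all samples, its RNAPII-pS5 change fell to 0.16 at the lowest, and the call held in 8 of 10. The lowest RNAPII-pS2 value was 0.72, with the call kept in 10 of 10. With p65 the lowest was 0.23, and 7 of 10 kept the call. In fits that left out 1 sample the Arg1 call held in 3 of 8, with changes from 1.03 without ctrl/ctrl replicate 1 to 2.76, and the Arg2 call in 6 of 8, with 0.67 without ctrl/ctrl replicate 2. Without IL-4 PT/ctrl replicate 1 the p65 calls fell to 1 gene, and without replicate 2 the regions rose to 8.

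For p65, the lists were larger with pretreatment under LPS, and centring of the gene sums removed a median change of 0.50 on the log2 scale. Of all p65 regions called, 11771 of 14963 were higher in this contrast and 15092 of 18630 with LPS in pretreated cells. IL-4 pretreatment under LPS gave 3 calls for RNAPII-pS5, Slc7a1 and Slc7a2 higher and Arg2 lower (26.1% of all genes), and 11 of 24 regions (25.1% of all regions). For RNAPII-pS2 there were 3 calls, Arg1, Odc1 and Slc7a2, all higher (23.5%), and 11 of 26 regions (27.7%). These fell to 1 gene without ctrl/LPS replicate 1 or either IL-4 PT/LPS sample, and to 6 regions without either IL-4 PT/LPS sample. For p65 there was 1 call, Slc7a2 (25.7%), and 15 of 28 regions, all higher (39.8%). Regions with p65 peaks in the IL-4 PT/LPS samples alone entered the test through the group where they are high. The direction of their calls was given by this entry, and they were no longer tested without 1 of those samples. The same holds for LPS in pretreated cells and for the interaction. Without either IL-4 PT/ctrl sample 2 genes were called for p65.

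LPS in pretreated cells gave 1 call for RNAPII-pS5, Slc7a2 higher by 2.49 ± 0.51 on the log2 scale (limma, adjusted p = 0.0201; 34.0% of all genes), and 15 of 24 regions (38.1% of all regions). The count was 3 genes without either ctrl/LPS sample and 2 without IL-4 PT/ctrl replicate 1 or IL-4 PT/LPS replicate 1. For RNAPII-pS2 all 5 genes were called, Arg1 lower and the other 4 higher (35.1%), and 15 of 26 regions (39.3%), and 2 genes were called without IL-4 PT/ctrl replicate 1 and 3 without either IL-4 PT/LPS sample. The higher genes were Odc1 (1.68 ± 0.24, adjusted p = 0.00640, but −1.98 and called without intergenic peaks), Slc7a1 (1.52 ± 0.58, adjusted p = 0.120, called in 3 of 8 fits that left out 1 sample), Arg2 (1.18 ± 0.36, adjusted p = 0.0674) and Slc7a2 (0.97 ± 0.28, adjusted p = 0.0598), the last pair each called in 6 of 8 such fits. For p65 there was 1 call, Slc7a2 by 1.81 ± 0.33 (limma, adjusted p = 0.0121, with 41.7% of all genes called), and 13 of 28 regions, all higher (49.6%). Again, regions with p65 peaks in IL-4 PT/LPS alone entered through that group, which gave the direction of their calls. Without IL-4 PT/ctrl replicate 1 there were 3 p65 genes, and without centring, which had removed a median change of 2.29, there were 4, with Arg2 at 2.04 in place of −0.25.

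The difference between the LPS responses with and without pretreatment was tested as an interaction. For RNAPII-pS5 there were 2 calls, Slc7a1 at 1.95 ± 0.70 and Arg2 at −1.90 ± 0.63 on the log2 scale (limma, adjusted p = 0.165 and 0.146; 22.6% of all genes), and 14 of 24 regions (28.7% of all regions). In fits that left out 1 sample the Slc7a1 call held in 2 of 8 and the Arg2 call in 3 of 8. There were 0 gene calls without ctrl/ctrl replicate 1 or IL-4 PT/ctrl replicate 1, 1 without IL-4 PT/ctrl replicate 2, ctrl/LPS replicate 1 or either IL-4 PT/LPS sample, and 9 regions without either IL-4 PT/ctrl sample. For RNAPII-pS2 there was 1 call, Slc7a2 at −1.10 ± 0.40 (adjusted p = 0.178, but 0.90 with a floor raised by a factor of 4; 22.4%), and 17 of 26 regions (30.7%). That gene call held in 2 of 8 fits that left out 1 sample, those without IL-4 PT/ctrl replicate 1 or ctrl/LPS replicate 1, and the regions numbered 10 or 11 without IL-4 PT/ctrl replicate 1 or 2, ctrl/LPS replicate 1 or 2 or IL-4 PT/LPS replicate 2. For p65 there was 1 call, Arg2 at −1.52 ± 0.47 (adjusted p = 0.128; 22.3%), and 12 of 28 regions (33.1%). It was lost without IL-4 PT/LPS replicate 2, 2 genes were called without IL-4 PT/ctrl replicate 2, and the regions fell to 3 and 2 without IL-4 PT/LPS replicate 1 and 2. The plot of log2 changes gives all 5 genes in the 23 comparisons.

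**Figure D4:**
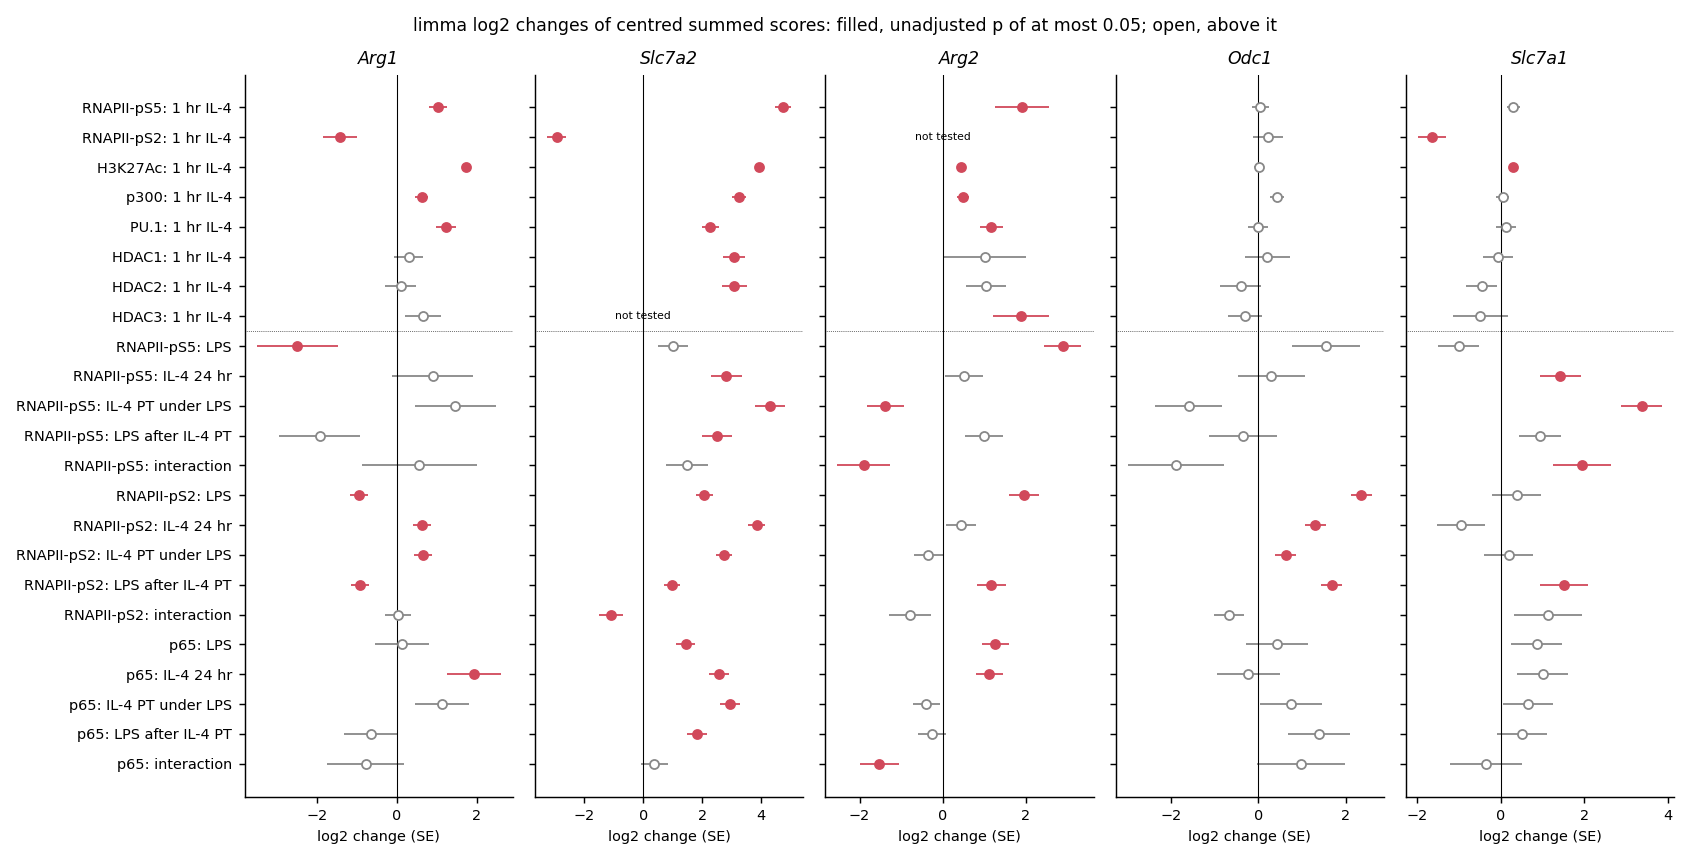
Log2 change of the summed score of each gene in the 23 comparisons, after centring, with bars of 1 SE; filled points passed an unadjusted p of at most 0.05 and open points did not, and 2 changes were not tested for want of peaks. Slc7a2 carries the highest change in most comparisons, 4.74 for RNAPII-pS5 after 1 hr of IL-4 being the largest, and the p65 changes with LPS are relative to a median change of 1.64 that the centring removed.

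Of the 39 other pathway genes, LPS alone gave 3 higher and 5 lower of 27 tested for RNAPII-pS5, 6 and 6 of 29 for RNAPII-pS2, and 7 and 5 of 27 for p65. Over all genes 38.8%, 39.9% and 45.8% were called, in the same order. For p65 the split was 14 higher and 0 lower without centring, for RNAPII-pS2 it was 7 and 4, and for RNAPII-pS5 it was 3 and 8. The p65 genes included Sat1, which acetylates polyamines (3.09 ± 0.21, limma, adjusted p = 0.000931), Smox, which oxidizes spermine (2.68 ± 0.49, adjusted p = 0.00951), and Slc3a2, the heavy chain shared by several amino acid transporters (2.18 ± 0.22, adjusted p = 0.00211). Ass1, which makes argininosuccinate on the way back to arginine, was higher for RNAPII-pS5 (2.24 ± 0.54, adjusted p = 0.0290).

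After 24 hr of IL-4 the same list gave 4 higher and 3 lower for RNAPII-pS5 (5 and 2 without centring), 7 and 3 for RNAPII-pS2, and 1 and 3 for p65. The shares of all genes called were 21.6%, 29.5% and 16.3%, in the same order. In p65 the higher gene was Gatm (2.89 ± 0.55, limma, adjusted p = 0.0381), and Nos2, which makes nitric oxide from arginine, was among the lower ones (−1.52 ± 0.25, adjusted p = 0.0261). Under LPS, pretreatment gave 1 higher and 1 lower for RNAPII-pS5 (2 and 0 without centring), 2 and 1 for RNAPII-pS2, and 4 and 0 for p65 (7 and 0 without centring). Here 26.1%, 23.5% and 25.7% of all genes were called. LPS in pretreated cells gave 5 and 7 for RNAPII-pS5, 4 and 5 for RNAPII-pS2 (6 and 2 without centring) and 9 and 4 for p65 (20 and 0 without centring). In this contrast 34.0%, 35.1% and 41.7% of all genes were called. The interaction gave 2 and 1, 2 and 3, and 3 and 1 in the same order (6 and 0 for p65 without centring), where 22.6%, 22.4% and 22.3% of all genes were called. Its calls included Nos2 for p65 at 1.47 ± 0.35 (limma, adjusted p = 0.0685).

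The genes whose RNAPII-pS5 sums were most like those of each member over the 12 samples were sought among 11515 genes, as a description only. They included Tmem53 and Gm839 for Arg1 (Pearson's r of 0.954 and 0.942), and were Rnf19b, Tas2r108 and Mir1190 for Slc7a2 (0.943, 0.933 and 0.928), and 1700019E08Rik, Grin3a and Arid2 for Arg2 (0.948, 0.944 and 0.937). For Odc1 they were Ppp1r11, Agtpbp1 and Dlst (0.949, 0.935 and 0.934), and for Slc7a1 Bcar3, Gm11202 and Ran (0.957, 0.939 and 0.934). The 12 samples come from 2 experiments that differ in their numbers of peaks, which the correlations share.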

How the data were processed

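The 56 peak lists come from 9 antibodies in mouse BMDMs, with 2 samples a group taken from the sample labels. According to the submitters' processing notes, reads were aligned to mm10 with BWA 0.7.10 and handled with SAMtools 0.1.19. With MACS2 2.0.10 the authors called the peaks of each sample at a q-value of at most 0.01 for 8 antibodies, and the deposited score is a −log10 p or q value, as inferred from its range. H3K27Ac regions come from findPeaks of HOMER 4.2 (size 1000, minDist 2500, histone style), and their deposited values are a signal, in tags scaled to a fixed library size by the authors. Both were annotated with HOMER and blacklisted regions had been removed. The steps of the H3K27Ac signal give 28.8 to 32.6 M tags per sample, whereas no depth is given for the others.

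Scores were summed per gene name, or the highest score was taken per region of peaks that overlapped by at least 1 bp. A sample with no peak received the lowest score in that antibody's lists. Logarithms to base 2 were centred on the median of genes or regions with a peak in every sample, and limma 3.58.1 in R 4.3.3 was fitted per antibody and experiment to all genes or regions with a peak in at least 2 samples. The threshold is an unadjusted p of at most 0.05, after the study's methods. The fit was tested on simulated data. The named regions of a gene were that nearest its start site and the 2 others with the highest mean score, the 4 largest called changes per comparison were named for the pathway list, and 3 similar genes per gene. Some genes that these rules pick are not reported here. The genes, lists and tests were chosen with earlier results of these data known. Replicate numbers were not used to pair the samples in the main fit. Alternatives were no centring, another floor, the highest peak, no intergenic peaks, the upper 50% of peaks, other filters, merging up to 500 bp, the replicate block, an adjusted p and leaving out each sample. Tables were read with Python 3.11.15 and pandas 2.3.3.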

Additional observations from a re-analysis of the deposited data

Results flagged for a closer look

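For 4 of the 15 interactions tested over the 5 genes and 3 antibodies, the LPS response in IL-4-pretreated cells differed from that in control cells at an unadjusted p of at most 0.05 in limma, and none of the 4 reached an adjusted p of 0.05. Over all genes the interaction was called for 22.6% with RNAPII-pS5, 22.4% with RNAPII-pS2 and 22.3% with p65, so such a call was common. For RNAPII-pS5 at Slc7a1, the transporter found in most cells, the LPS response was 1.95 higher on the log2 scale with pretreatment. Neither LPS response was called by itself (−1.01 without and 0.94 with pretreatment). The sums were 7.61 and 4.64 in ctrl/ctrl and 15.82 and 17.83 in IL-4 PT/ctrl. With LPS they were 27.14 and 32.80 in IL-4 PT/LPS against no peak and 3.87 in ctrl/LPS. For RNAPII-pS5 at Arg2, the mitochondrial arginase, the difference was −1.90, and the p65 difference at Arg2 was −1.52. Without centring the p65 difference of Arg2 was −0.87 and was not called. For RNAPII-pS2 at Slc7a2 the difference was −1.10. Slc7a2 had no peak in ctrl/ctrl and sums of 16.95 and 21.26 in IL-4 PT/ctrl, 5.60 and 8.25 in ctrl/LPS and 47.74 and 46.06 in IL-4 PT/LPS. This last difference depends on the value given to a missing peak and was 0.90 with a floor raised by a factor of 4.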

How the results depend on the processing

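Across the 53 called gene changes, raising the floor by a factor of 4 kept the direction and call of 47, leaving out the centring kept 47, setting the floor after the centring kept 50, taking the highest peak in place of the sum kept 39, the upper 50% of the peaks kept 40, leaving out intergenic peaks kept 29, and leaving out 1 sample at a time kept 259 calls and lost 77, with 0 called changes that turned sign. The Arg1 interaction for RNAPII-pS5, 0.56 and not called, was 2.26 without ctrl/LPS replicate 1 and −1.19 without ctrl/LPS replicate 2, called in both. Fits that left out 1 sample and so no longer tested a gene, as for Slc7a2 with H3K27Ac, are counted neither as kept nor as lost. Of the 132 called changes of regions, 130 kept the call with the floor set after the centring, 122 with peaks merged up to 500 bp apart and 90 at an adjusted p of at most 0.05. The 2 settings with a score of at least 2 and with the floor set after the centring were chosen after seeing the data. The cause was not tested where no construction of the setting gives it.

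At an adjusted p of at most 0.05 the number of genes called went from 3 to 1 for RNAPII-pS5, 3 to 0 for RNAPII-pS2, 3 to 0 for p300, 3 to 0 for PU.1, 1 to 0 for HDAC1, 1 to 0 for HDAC2 and 1 to 0 for HDAC3 with 1 hr of IL-4, 2 to 1 for RNAPII-pS5 with LPS alone, 2 to 1 for RNAPII-pS5 and 3 to 1 for p65 with 24 hr of IL-4, 2 to 0 for RNAPII-pS5, 1 to 0 for RNAPII-pS2 and 1 to 0 for p65 with the interaction, 3 to 1 for RNAPII-pS2 with pretreatment under LPS, 5 to 2 for RNAPII-pS2 with LPS in pretreated cells. The number of regions went from 8 to 2 for RNAPII-pS5, 3 to 0 for RNAPII-pS2, 13 to 4 for p300, 11 to 0 for PU.1, 2 to 0 for HDAC1 and 2 to 0 for HDAC2 with 1 hr of IL-4, 11 to 7 for RNAPII-pS2 with pretreatment under LPS, 17 to 11 for RNAPII-pS2 with the interaction, 4 to 1 for p65 with 24 hr of IL-4. With genes that had a peak in every sample alone, so that fewer genes were tested, it went from 3 to 1 for RNAPII-pS5, 3 to 1 for RNAPII-pS2, 1 to 0 for HDAC1 and 1 to 0 for HDAC3 with 1 hr of IL-4, 2 to 0 for RNAPII-pS5 with 24 hr of IL-4, 2 to 1 for RNAPII-pS5 and 1 to 0 for RNAPII-pS2 with the interaction, 2 to 1 for p65 with LPS alone, 1 to 0 for p65 with pretreatment under LPS, 1 to 0 for p65 with LPS in pretreated cells.

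Without intergenic peaks it went from 3 to 1 for RNAPII-pS2, 3 to 1 for p300, 1 to 0 for HDAC1 and 1 to 0 for HDAC2 with 1 hr of IL-4, 2 to 1 for RNAPII-pS5, 4 to 1 for RNAPII-pS2 and 2 to 1 for p65 with LPS alone, 2 to 1 for RNAPII-pS5, 3 to 1 for RNAPII-pS2 and 3 to 1 for p65 with 24 hr of IL-4, 1 to 2 for RNAPII-pS5 and 1 to 0 for p65 with LPS in pretreated cells, 1 to 0 for RNAPII-pS2 and 1 to 2 for p65 with the interaction. The log2 changes that turned sign were Odc1 with RNAPII-pS2 and LPS alone (2.36 to −0.92), Odc1 with RNAPII-pS2 and 24 hr of IL-4 (1.30 to −0.59), Odc1 with RNAPII-pS2 and pretreatment under LPS (0.63 to −1.65), Odc1 with RNAPII-pS2 and LPS in pretreated cells (1.68 to −1.98), Slc7a2 with RNAPII-pS2 and the interaction (−1.10 to 1.32) and Slc7a2 with p65 and LPS alone (1.44 to −1.52). With the upper 50% of the peaks of each sample it went from 3 to 1 for RNAPII-pS2, 1 to 0 for HDAC1, 1 to 0 for HDAC2 and 1 to 0 for HDAC3 with 1 hr of IL-4, 2 to 1 for RNAPII-pS5 with 24 hr of IL-4, 1 to 3 for RNAPII-pS5 and 1 to 2 for p65 with LPS in pretreated cells, 2 to 4 for RNAPII-pS5, 1 to 2 for RNAPII-pS2 and 1 to 2 for p65 with the interaction, 1 to 3 for p65 with pretreatment under LPS. The changes that turned sign were Slc7a1 with RNAPII-pS5 and 24 hr of IL-4 (1.43 to −0.10), Arg1 with RNAPII-pS5 and the interaction (0.56 to −1.55), Slc7a2 with RNAPII-pS2 and LPS alone (2.07 to −0.38), Slc7a2 with RNAPII-pS2 and the interaction (−1.10 to 1.60), Arg1 with p65 and LPS alone (0.13 to −1.17) and Slc7a2 with p65 and LPS alone (1.44 to −1.49).

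With the floor raised by a factor of 4 the number of genes went from 1 to 4 for RNAPII-pS5 with LPS in pretreated cells, 1 to 2 for RNAPII-pS2 and 1 to 2 for p65 with the interaction, 2 to 1 for p65 with LPS alone, and the changes of Slc7a1 with RNAPII-pS2 and 1 hr of IL-4 (−1.65 to 0.037), Slc7a2 with RNAPII-pS2 and the interaction (−1.10 to 0.90) and Slc7a2 with p65 and LPS alone (1.44 to −0.56) turned sign. Without centring it went from 3 to 1 for p300 and 1 to 0 for HDAC3 with 1 hr of IL-4, 2 to 5 for p65 with LPS alone, 1 to 4 for p65 with LPS in pretreated cells, 1 to 0 for p65 with the interaction, and Arg2 with p65 and LPS in pretreated cells (−0.25 to 2.04) turned sign. With the highest peak in place of the sum it went from 1 to 0 for HDAC3 with 1 hr of IL-4, 2 to 1 for RNAPII-pS5 with LPS alone, 2 to 1 for RNAPII-pS5 with 24 hr of IL-4, 1 to 3 for RNAPII-pS5 and 5 to 1 for RNAPII-pS2 with LPS in pretreated cells, 1 to 2 for p65 with pretreatment under LPS, and Slc7a1 with RNAPII-pS5 and 24 hr of IL-4 (1.43 to −0.066) turned sign. With the floor set after the centring it went from 1 to 0 for HDAC3 with 1 hr of IL-4, 2 to 1 for RNAPII-pS5 with LPS alone, and regions from 14 to 8 for p65 with LPS alone. With peaks of a score of at least 2 it went from 1 to 2 for RNAPII-pS5 with LPS in pretreated cells, 1 to 0 for RNAPII-pS2 with the interaction. With peaks merged up to 500 bp apart the regions went from 15 to 9 for RNAPII-pS5 and 15 to 8 for RNAPII-pS2 with LPS in pretreated cells, 14 to 8 for RNAPII-pS5 and 17 to 10 for RNAPII-pS2 with the interaction, 11 to 7 for RNAPII-pS2 with 24 hr of IL-4, and the changes of Arg1 at 0.6 kb with RNAPII-pS5 and LPS alone (0.18 to −2.40), Slc7a2 at −0.5 kb with RNAPII-pS2 and pretreatment under LPS (−0.44 to 2.66), Slc7a2 at −0.5 kb with RNAPII-pS2 and LPS in pretreated cells (−1.73 to 0.98) and Slc7a2 at −0.5 kb with RNAPII-pS2 and the interaction (−2.04 to 0.67) turned sign.

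When 1 sample was left out at a time, the number of genes ran as follows. With 1 hr of IL-4 it was 1 to 3 for RNAPII-pS5, 0 to 3 for RNAPII-pS2, 1 to 4 for p300, 1 to 3 for PU.1, 0 to 2 for HDAC1, 0 to 1 for HDAC2 and 0 to 1 for HDAC3. With LPS alone it was 1 to 3 for RNAPII-pS5. With 24 hr of IL-4 it was 1 to 3 for RNAPII-pS5 and 1 to 3 for p65. With LPS in pretreated cells it was 1 to 3 for RNAPII-pS5, 2 to 5 for RNAPII-pS2 and 1 to 3 for p65. With the interaction it was 0 to 3 for RNAPII-pS5, 0 to 1 for RNAPII-pS2 and 0 to 2 for p65. With pretreatment under LPS it was 1 to 3 for RNAPII-pS2 and 1 to 2 for p65. The number of regions ran as follows, too. With 1 hr of IL-4 it was 3 to 8 for RNAPII-pS5, 0 to 3 for RNAPII-pS2, 6 to 16 for p300, 1 to 10 for PU.1, 0 to 3 for HDAC1, 0 to 2 for HDAC2 and 0 to 1 for HDAC3. With 24 hr of IL-4 it was 5 to 10 for RNAPII-pS5 and 3 to 8 for p65. With the interaction it was 9 to 13 for RNAPII-pS5, 10 to 12 for RNAPII-pS2 and 2 to 14 for p65. With pretreatment under LPS it was 6 to 11 for RNAPII-pS2 and 5 to 16 for p65. With LPS alone it was 5 to 16 for p65. With LPS in pretreated cells it was 4 to 13 for p65.

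The scores gave no sign that the replicate numbers of the labels pair the samples. Same-numbered samples of 2 groups had deviations from the group means that correlated at −0.02 to 0.07 over 8 pairs of groups in the 1 hr experiment. In the LPS experiment they correlated at −0.03 to 0.02 over 18 pairs. This check cannot tell whether same-numbered samples shared an animal, since noise in the scores can hide it. With the replicate number as a block, 48 of the 53 gene calls and 119 of the 132 region calls held, and the number of genes called for p300 with 1 hr of IL-4 went from 3 to 1. No other count of genes or regions moved by more than 1.5 times with the block. Depth is unknown except for H3K27Ac, and after 1 hr of IL-4 limma gave 0 genes at an adjusted p of at most 0.05 for 6 antibodies, against 1710 for RNAPII-pS2, 4053 for p300, 1604 for PU.1, 1091 for HDAC1, 991 for HDAC2 and 925 for HDAC3 at an unadjusted one.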
